A study of Mus musculus with 14 samples.

Results

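The neuromuscular junction genes Chrna1, Chrnb1, Chrnd, Chrne, Chrng, Musk, Rapsn, Dok7, Ache and Colq were followed in bulk RNA-Seq of mouse esophagus. These 10 genes were taken by their symbols, and all 10 were found among the 55291 genes of the count files. The 14 samples came from C57BL/6 mice, with no transgene or treatment in the labels: 5 aged and 4 young samples of epithelium, and 3 aged and 2 young samples of stroma. For its epithelium-enriched tissue the study pulled the muscle layer off with forceps. How the stroma was taken is not given in the sources used here. Aged mice were 18 months or older and young mice 4 months or younger. Stroma came from mice O1, O2 and O3 (aged) and Y1 and Y3 (young), each of which also gave epithelium, whereas mice OF5, OM8, YF5 and YM4 gave epithelium only. Sex is labelled for 3 of the 9 mice, so it could not be entered as a term.

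At the neuromuscular junction, acetylcholine released by a motor nerve opens a receptor channel in the muscle fibre below it. The receptor is a ring of alpha, beta and delta subunits (Chrna1, Chrnb1, Chrnd) closed by a gamma subunit (Chrng) in fetal muscle or an epsilon subunit (Chrne) in adult, innervated muscle. The kinase MuSK and its adaptor Dok7 answer agrin from the nerve, and rapsyn (Rapsn) ties the receptors into clusters. Acetylcholinesterase (Ache) breaks acetylcholine down, and the collagen tail ColQ holds that enzyme in the synaptic cleft. The muscle coat of the mouse esophagus is mostly striated. Loss of the nerve is known to raise Chrna1, Chrng and Musk along the whole fibre, which is why these genes were set against age. In bulk tissue, fewer cells of a type and less RNA per cell cannot be told apart.

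Total counts were 8217516 to 21867101 per sample, but protein-coding counts came to only 1021586 to 1388574 in the 4 mice that gave epithelium alone, against 5980721 to 10992868 in the other 10 samples. A ribosomal RNA locus took 63.9% to 73.9% of all counts in those 4 mice. It took 10.4% to 23.3% in the other epithelial samples and 1.47% to 1.88% in stroma. The 4 mice thus differ from the others in library composition as well as in depth. As a check of the labels, 12 skeletal muscle markers (sarcomere and energy genes such as Ttn, Neb, Ckm and Des) were all higher in stroma and the 8 keratinocyte markers all lower. The stromal samples also differed in how many genes had any count: 34224 and 41308 in the young samples, against 22961, 25497 and 20115 in the aged samples of O1, O2 and O3.

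The genes lie apart in the genome except for Chrnd and Chrng, which are neighbours on the plus strand of chromosome 1 (in GRCm38, chr1:87190607-87200070 and chr1:87204657-87212694). Chrna1 (chr2:73563215-73580338) and Rapsn (chr2:91035620-91045729) share chromosome 2, Chrnb1 (chr11:69784036-69795943) and Chrne (chr11:70614883-70619216) chromosome 11, and Dok7 (chr5:35056766-35087839) and Ache (chr5:137287519-137294466) chromosome 5. Musk lies at chr4:58285960-58374303 and Colq at chr14:31523082-31591343. All are protein-coding. In the GENCODE annotation 199 exonic bases of Colq (5.23%) are shared with Gm49387 on the same strand, and 98 exonic bases of Ache (2.12%) with Gm42456 on the other strand, and how the authors' counting treated such bases is not given.

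The promoters of Chrna1, Chrne and Chrng are printed because the receptor subunits are the genes whose levels are compared most closely below. Each window runs from 250 bases before to 50 bases after a RefSeq start in GRCm38.p6, with capitals marking the E-box letters CANNTG (bound by myogenic factors such as MyoD and myogenin) and the N-box letters CCGGAA (bound by ETS factors).
Chrna1 (chr2:73580289-73580588, minus strand): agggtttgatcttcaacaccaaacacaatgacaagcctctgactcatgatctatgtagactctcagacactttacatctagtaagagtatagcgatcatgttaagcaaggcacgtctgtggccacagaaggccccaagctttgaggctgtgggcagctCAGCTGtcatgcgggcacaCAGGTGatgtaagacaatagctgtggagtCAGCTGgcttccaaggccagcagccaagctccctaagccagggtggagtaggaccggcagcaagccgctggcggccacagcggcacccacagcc
Chrne (chr11:70619145-70619444, minus strand): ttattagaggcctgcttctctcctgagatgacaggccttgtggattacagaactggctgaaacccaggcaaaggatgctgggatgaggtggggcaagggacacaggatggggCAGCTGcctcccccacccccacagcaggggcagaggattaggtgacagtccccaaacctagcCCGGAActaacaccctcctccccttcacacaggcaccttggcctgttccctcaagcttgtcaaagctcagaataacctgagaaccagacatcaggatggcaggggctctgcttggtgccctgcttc
Chrng (chr1:87205561-87205860, plus strand): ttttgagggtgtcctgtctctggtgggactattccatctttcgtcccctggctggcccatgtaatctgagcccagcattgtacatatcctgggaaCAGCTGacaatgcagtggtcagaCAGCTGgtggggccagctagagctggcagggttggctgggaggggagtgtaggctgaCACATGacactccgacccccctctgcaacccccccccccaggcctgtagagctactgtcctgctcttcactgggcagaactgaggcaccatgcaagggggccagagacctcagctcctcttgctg
The Chrna1 window holds 3 E-boxes, at bases -92, -73 and -44 from the start. Those at -92 and -44 read CAGCTG. Chrng has 3 E-boxes, of which those at -155 and -132 read CAGCTG. Its RefSeq start lies inside the GENCODE gene. The Chrne window holds 1 E-box, at -138, and the N-box CCGGAA at -76. Both strands were searched, and CAGCTG is itself one form of CANNTG. The letters CANNTG are common, in 72.3% of all 32851 RefSeq windows of this length, whereas CAGCTG occurs in 16.3% and CCGGAA in 14.9%. Windows were found for 7 of the 10 genes; CAGCTG was present in those of Chrna1, Chrne, Chrng and Musk and not in those of Chrnb1, Dok7 and Ache. CCGGAA was found in that of Chrne alone. These matches describe letters only. Windows for Chrnd, Rapsn and Colq were not used here.

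Stroma was first compared with epithelium, to ask where the junction genes are read out. Levels are given as normalized counts, which are counts per 1e6 counts of the library (CPM) after TMM scaling of the 14 samples, and a DEG is a gene with an adjusted p under 0.05 in edgeR's quasi-likelihood test (Benjamini-Hochberg). Of the 10 junction genes, 8 had enough counts to be tested and all 8 were DEGs higher in stroma, where 30.1% of the 16791 genes tested were higher and 56.2% differed in either direction. Their log2 fold changes ran from 2.45 to 6.00 with a median of 4.74, beside 0.05 over all genes tested and 6.52 for the skeletal muscle markers. Chrne and Chrng were below the count filter. Chrna1, Chrnd, Rapsn, Dok7 and Colq passed the filter through their stromal counts, since they did not pass it in the epithelial samples alone. Such genes could be tested only if high in stroma, so their direction was favoured by the filter. With no filter, all 10 were tested and 8 were DEGs, all higher in stroma. For 7 of the 8 the lowest stromal sample was above the highest epithelial sample, as for 16.9% of all genes tested, and Rapsn was the one that overlapped.

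Chrna1, the subunit that carries most of the acetylcholine binding site, had 28.3, 9.98 and 9.14 normalized counts in the stroma of O1, O2 and O3 and 14.4 in that of both Y1 and Y3. In epithelium it ran from 0 to 0.393, with a median of 0.142 (n = 9). The layers did not overlap, and O1 stood above the other stromal samples. Its log2 fold change was 6.00 (standard error, SE, 0.42, adjusted p = 2.36e-10 from the edgeR test), the largest among the junction genes tested.

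Chrnd showed the same division with one high sample: 6.07, 8.13 and 23.1 normalized counts in the stroma of O1, O2 and O3, 5.62 in Y1 and 5.004 in Y3, against 0 to 0.471 in epithelium (median 0.0354). The highest stromal value was thus in O3 for Chrnd and in O1 for Chrna1, although both encode parts of one receptor. The log2 fold change of Chrnd was 5.43 (SE 0.56, adjusted p = 7.05e-08, edgeR). It was 4.89 without mouse O3 and 6.01 without mouse Y3. The beta subunit gene Chrnb1 had 4.78, 8.42 and 9.87 in the aged and 15.0 and 8.55 in the young stroma, and 0 to 1.41 in epithelium (median 0.744). Its log2 fold change was smaller, 3.66 (SE 0.36, adjusted p = 3.68e-08, edgeR).

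Chrne and Chrng, the adult and the fetal alternative, were near the detection limit in both layers. In stroma Chrne had 21, 9 and 0 reads in O1, O2 and O3 and 31 and 13 in Y1 and Y3. Chrng had 0 reads in all 3 aged samples and 20 and 15 in Y1 and Y3. In epithelium the highest counts were 12 for Chrne and 8 for Chrng, both in Y3. When no filter was applied, the log2 fold changes were 1.15 for Chrne (adjusted p = 0.394) and 1.49 for Chrng (adjusted p = 0.349, both edgeR), so a layer difference was not detectable at this depth.

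Among the clustering genes, Musk had the highest level per exon length and the smallest spread in stroma. It had 63.6, 44.2 and 37.6 normalized counts in the stroma of O1, O2 and O3, 57.3 in Y1 and 48.5 in Y3, and 0.345 to 2.36 in epithelium (median 1.25). Its log2 fold change was 5.33 (SE 0.30, adjusted p = 1.19e-11, edgeR). Dok7 had 6.88, 8.42 and 6.20 in aged and 13.7 and 7.09 in young stroma, and 0 to 0.833 in epithelium. Its log2 fold change was 4.81 (SE 0.41, adjusted p = 3.99e-09). Rapsn varied most among these: 1.87, 5.59 and 0.727 in aged stroma, 3.92 and 2.76 in young stroma, and 0 to 0.131 in 8 of the epithelial samples. The remaining epithelial sample, YF5, had 2.08 normalized counts from 5 reads, which is above the stroma of O1 and O3. YF5 also had the highest sum of the skeletal muscle markers in epithelium, 1855 normalized counts against 169 to 1145 in the other epithelial samples. Whether the 2 are linked was not tested. The log2 fold change of Rapsn was 4.66 (SE 0.93, adjusted p = 0.000248). It was 5.77 without YF5, 3.97 without O2 and 5.54 with mouse as a block.

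Among the junction genes that passed the count filter, Ache differed least between the layers. In stroma it had 7.58, 8.18 and 14.4 normalized counts in O1, O2 and O3 and 5.93 and 5.004 in Y1 and Y3, and in epithelium 0.708 to 4.24 (median 1.18), a log2 fold change of 2.45 (SE 0.41, adjusted p = 3.83e-05). Within epithelium the 5 mice with both layers had 0.708 to 1.18 and the 4 others 1.25 to 4.24, the latter from 3 to 18 reads. When OF5, OM8, YF5 and YM4 were left out, the log2 fold change of Ache was 3.13. Colq had 9.57, 2.47 and 3.94 in aged and 3.56 and 2.48 in young stroma, against 0 to 0.523 in epithelium, a log2 fold change of 4.47 (SE 0.58, adjusted p = 1.67e-06). It was 3.92 without mouse O1 and 5.26 without mouse Y3. Ache is also made outside muscle, in neurons and in blood cells.

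**Figure D1:**
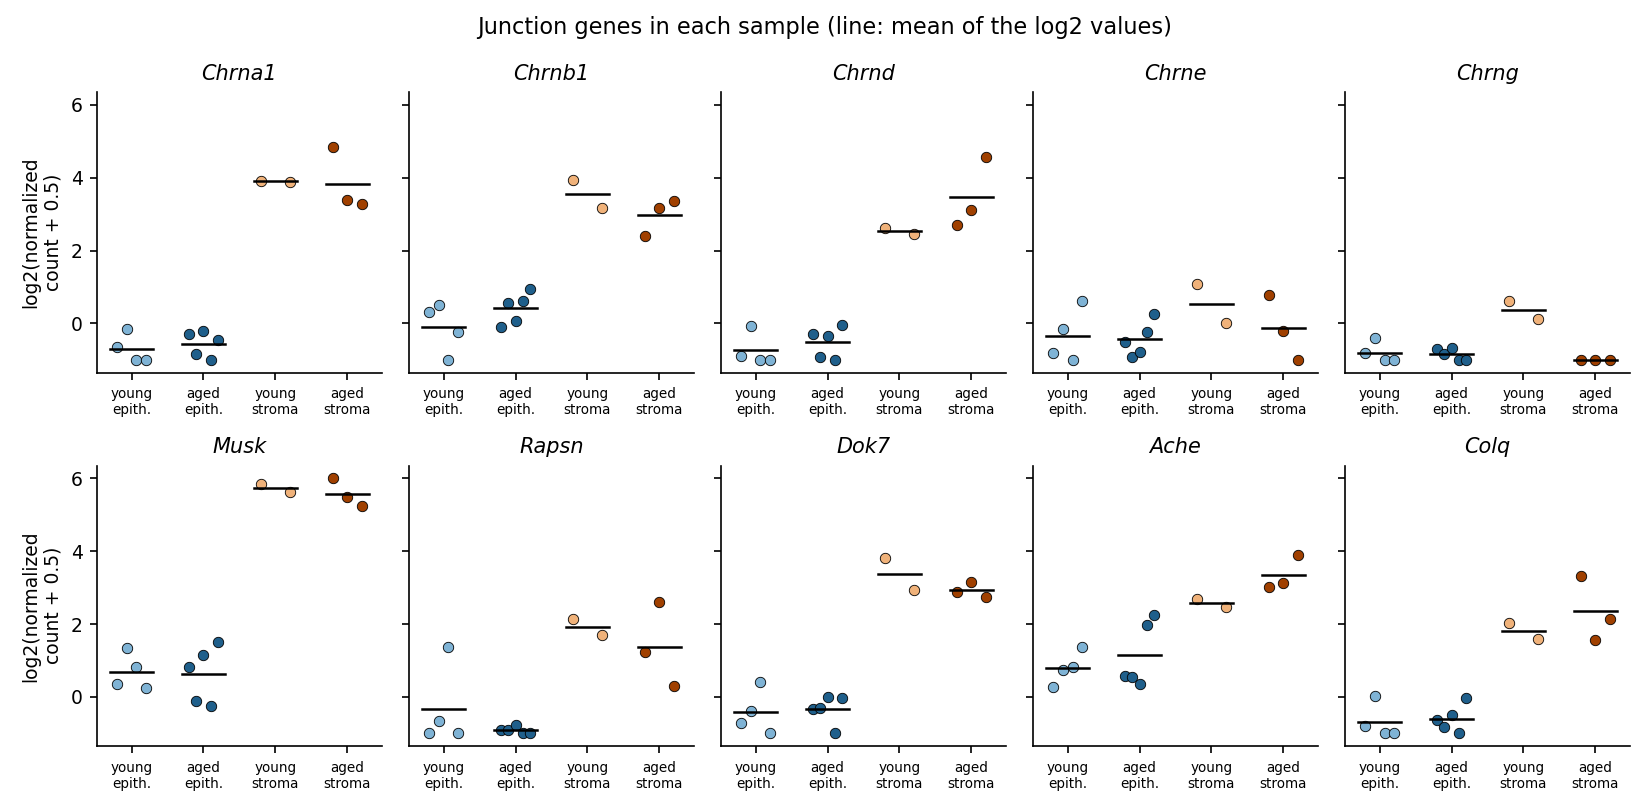
Each panel shows one junction gene, with log2 of the normalized count plus 0.5 on the vertical axis, a point for each of the 14 samples and a line at the mean of the log2 values in each group. The stromal points lie above the epithelial ones for 7 genes, overlap for Rapsn through YF5, and sit close to the epithelial ones for Chrne and Chrng.

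Beside the muscle markers, the epithelial mean was expressed as a percentage of the stromal mean, in the 5 mice with both layers for epithelium. The 12 muscle markers lay between 0.626% (Ttn) and 3.94% (Des). Chrna1 (1.69%), Rapsn (1.84%), Chrnd (2.37%), Musk (2.48%) and Dok7 (3.45%) fell inside that range. Colq (4.58%), Chrnb1 (7.73%), Ache (11.3%), Chrne (21.04%) and Chrng (39.0%) lay above it. For Chrne and Chrng these percentages rest on 24 and 19 reads in epithelium. Over all 9 epithelial samples the muscle markers reached 4.34% (Des), and Rapsn, at 8.81%, lay above them, with Ache at 21.2%. A difference from the muscle markers was not tested.

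**Figure D2:**
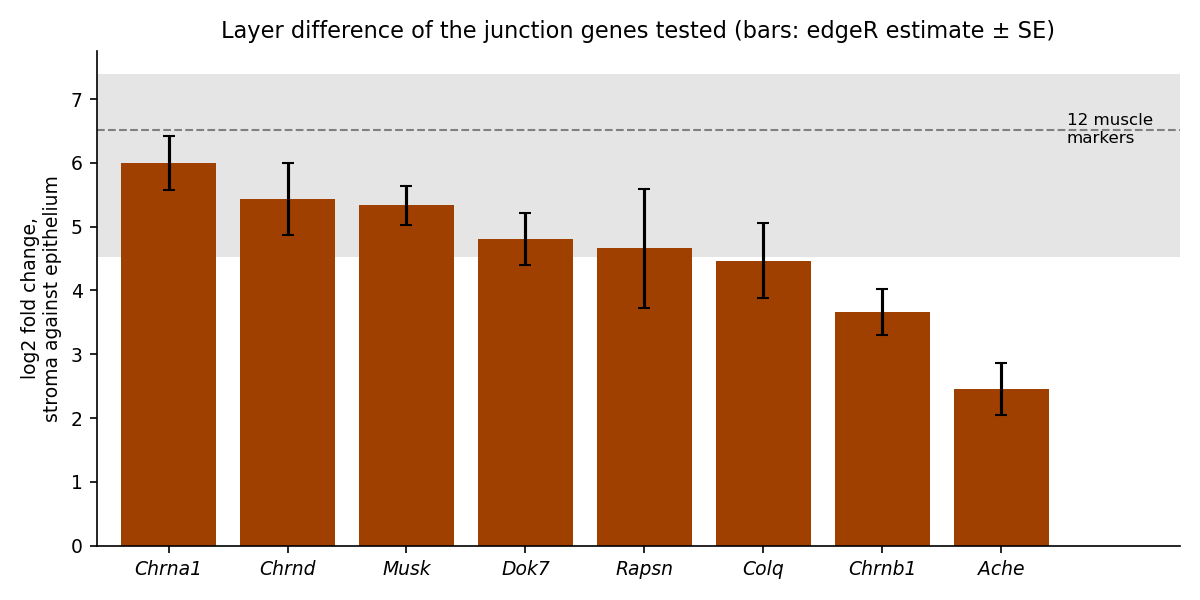
Bars give the log2 fold change of stroma against epithelium for the 8 junction genes tested, with the standard error, and the grey band and dashed line give the range and median of the 12 skeletal muscle markers. The bars fall from 6.00 for Chrna1 to 2.45 for Ache, and those of Colq, Chrnb1 and Ache end below the band, which starts at 4.53.

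Dividing by exon length allows the genes to be ranked against each other within stroma. Musk had 13.3 ± 2.74 normalized counts per kilobase (SD, n = 5) and its lowest stromal sample lay above the highest of each other junction gene. Chrnb1 (3.68 ± 1.45), Chrna1 (3.47 ± 1.75) and Chrnd (2.91 ± 2.32) came next and their ranges overlapped. Dok7 (1.98 ± 0.708), Ache (1.78 ± 0.794), Rapsn (1.65 ± 1.04) and Colq (1.16 ± 0.778) followed, again with overlapping ranges. Chrne (0.439 ± 0.387) and Chrng (0.0780 ± 0.113) were lowest. All neighbours in this order after Musk overlapped. Exon length here is the union of all annotated exons, so a gene with long rare exons is placed too low.

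Of 30 other junction genes, all tested, 16 were DEGs higher and 5 lower in stroma, beside 30.1% higher and 26.1% lower over all genes tested. Their median log2 fold change was 0.74. Among those higher were Scn4a, the muscle sodium channel (log2 fold change 5.98), Dtna, of the dystrophin complex (3.73), and the basal lamina gene Nid2 (3.51). Lowest were Erbb2 (-3.85) and Erbb3 (-2.73), receptors for neuregulin, Agrn (-1.59), which encodes agrin, and Sntb1 (-1.44). Agrin acts on the junction when it comes from the nerve. Lrp4, the agrin receptor that activates MuSK, was higher in stroma with 53.8 ± 16.6 normalized counts (SD, n = 5) against 17.1 ± 2.31 (SD, n = 9), and was named after its value was seen. Among 5 cholinergic nerve genes 3 were tested and 2 were DEGs, Chat (3.43) and Prima1 (1.96), both higher in stroma. Of 10 neuronal nicotinic subunits 2 passed the filter and neither was a DEG.

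With the mean standardised level of the 8 tested junction genes as the profile, the most similar other genes included Isl1, Lrrc39, Gm18589, Phka1, Hephl1, Ppp1r3c and Fam13a, with Pearson's r of 0.991 to 0.995. These are descriptions across 14 samples that share 2 layers, and 1496 of 16783 genes had an r above 0.9. Isl1 encodes a transcription factor of motor neurons and of branchial muscle. Each junction gene was then set against the other 7. Musk was most like them (0.988) and Rapsn least (0.776).

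The second comparison asked whether the aged stroma carries signs of denervation. None of the 10 junction genes was a DEG between 3 aged and 2 young stromal samples, and none of the 21323 genes tested was (0% called, edgeR). At an unadjusted p under 0.05 there were 776 genes (3.64%), 1 junction gene, Chrng, among them. DESeq2 called 2 genes, neither of them among the 10. The median log2 fold change (aged minus young) of the 10 was -0.21, beside -0.01 over all genes tested. The following levels are on the TMM scale of the 5 stromal samples, which differs from the scale above.

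Of the genes known to rise on denervation, Musk had 93.4, 66.8 and 56.6 normalized counts in aged O1, O2 and O3 and 86.0 and 72.9 in young Y1 and Y3. The groups overlapped, and the log2 fold change was -0.14 (SE 0.28, adjusted p = 1.0, edgeR). Chrna1 had 41.5, 15.1 and 13.7 in aged and 21.6 in both young samples. One aged sample lay above the young ones and the others below, giving 0.11 (SE 0.49), and -0.58 without mouse O1. Chrnb1 had 7.02, 12.7 and 14.8 in aged and 22.5 and 12.8 in young stroma, a log2 fold change of -0.61 (SE 0.46), and the groups overlapped.

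Chrnd was higher in each aged sample than in either young one: 8.90, 12.3 and 34.7 against 8.44 and 7.51. Its effect was a log2 fold change of 1.23 (SE 0.60, unadjusted p = 0.0687, adjusted p = 1.0, edgeR), with O3 far above the other samples. Ache behaved likewise, with 11.1, 12.3 and 21.6 in aged and 8.91 and 7.51 in young stroma. The log2 fold change of Ache was 0.87 (SE 0.48, unadjusted p = 0.0967, adjusted p = 1.0). Every aged sample lay above every young one for 6.42% of all genes tested, and for 2 of the 10 junction genes. Without mouse O3 the log2 fold changes were 0.39 for Chrnd and 0.49 for Ache.

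Dok7 had 10.1, 12.7 and 9.32 in aged and 20.5 and 10.6 in young stroma, a log2 fold change of -0.54 (SE 0.45). Rapsn had 2.74, 8.44 and 1.09 against 5.89 and 4.14, a log2 fold change of -0.29 (SE 0.92). Colq had 14.04, 3.72 and 5.92 against 5.34 and 3.73, a log2 fold change of 0.80 (SE 0.71), and 0.09 without mouse O1. In all 3 the groups overlapped, and the adjusted p was 1.0.

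**Figure D3:**
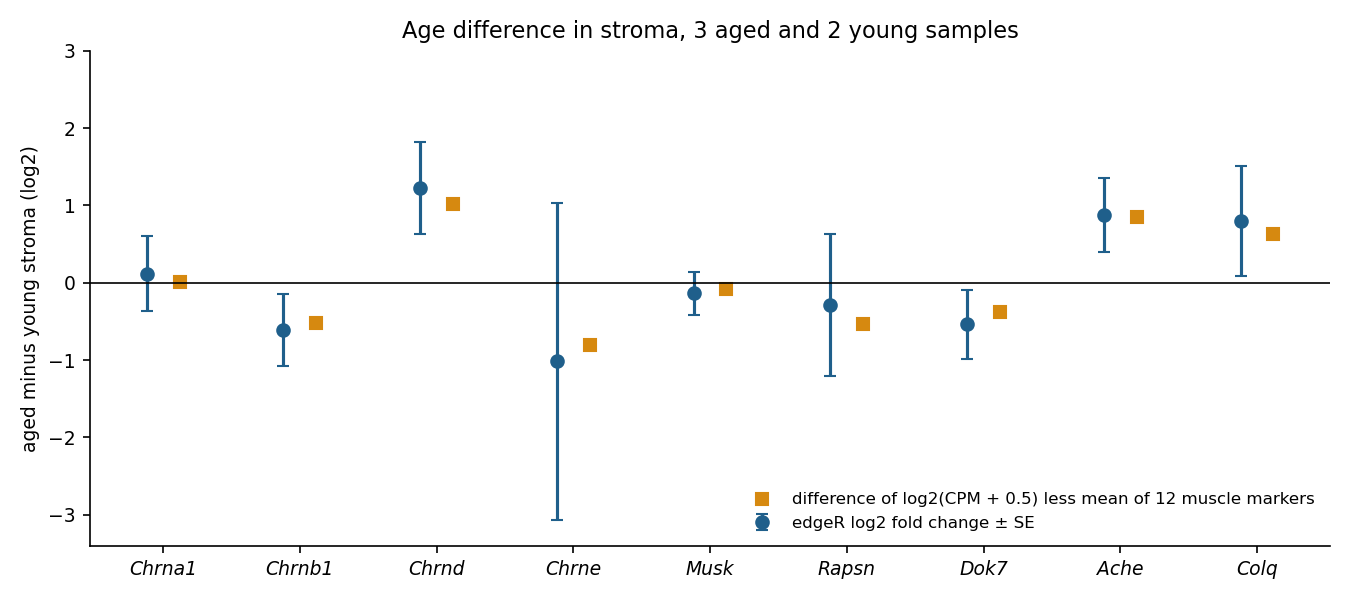
Points show aged minus young stroma on a log2 scale for 9 junction genes, as the edgeR log2 fold change with its standard error (circles) and as the difference after the mean of 12 muscle markers was subtracted (squares); Chrng, at 0 in all aged samples, is left out. Chrnd (1.23), Ache (0.87) and Colq (0.80, and 0.09 without mouse O1) lie above 0 and Chrne (-1.01) has the widest error.

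The 12 skeletal muscle markers summed to 42353 to 76538 normalized counts in aged and 53190 to 67380 in young stroma (scale of the 14 samples), and the ages overlapped. Their mean log2 CPM, without TMM scaling, was 11.44, 11.48 and 11.24 in aged O1, O2 and O3 and 11.40 and 11.44 in young Y1 and Y3. Set against this mean, Musk differed by -0.08 (aged minus young, log2) and Chrna1 by 0.01, while Chrnd differed by 1.01 and Ache by 0.86. The ages overlapped for Chrnd on this scale and did not for Ache. The median difference over the 10 genes was -0.23. By an exact two-sided permutation test that doubles the smaller tail, 3 against 2 samples cannot give a p below 0.2. That smallest value was reached for Chrng and Ache. None of the markers of other cell types was a DEG by age. At an unadjusted p under 0.05 were 4 of 5 smooth muscle, 5 of 7 keratinocyte, 2 of 8 Schwann cell, 1 of 6 enteric neuron, 1 of 6 fibroblast and 0 of 12 skeletal muscle markers tested. The summed level (scale of the 14 samples) of 5 smooth muscle markers was 816 to 2051 in aged and 303 to 600 in young stroma, that of 8 Schwann cell markers 38.0 to 125 in aged and 127 to 153 in young, and that of 8 enteric neuron markers 18.3 to 21.7 in aged and 11.5 to 13.5 in young. Without Uchl1, left out after its values were seen, the other 7 enteric neuron markers summed to 8.38 to 14.9 in aged and 8.75 to 11.4 in young stroma, which overlap. The 8 keratinocyte markers summed to 53.2 to 449 in aged and 45.9 to 74.4 in young stroma, and the 6 fibroblast markers to 415 to 1031 and 705 to 746. No gene of these lists was at 0 in every stromal sample. Their part in the junction gene values was not tested.

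The spread between stromal samples bears on what could be seen. It is given over both ages together, so any difference by age is included in it. Musk had a coefficient of variation of 19.6% over the 5 samples, beside a median of 22.8% for the 3470 protein-coding genes with mean counts of 300 to 2000. Chrnd (80.1%), Ache (45.02%), Chrnb1 (39.8%) and Dok7 (36.1%), with mean counts from 100 to 300, stood at or above the median of 35.9% for 4131 such genes, and counting error alone would give 6.62% for Chrnd. Chrna1 (49.0%) was above the median of its class, which is that of Musk. Rapsn (63.7%) and Colq (65.6%) were above the 52.5% of genes with mean counts of 50 to 100. The highest stromal sample exceeded the lowest by 1.65-fold for Musk and 7.72-fold for Rapsn.

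The fetal subunit was read in young stroma and not in aged stroma, at low counts. Chrng made up 0% of the Chrng and Chrne reads in O1 (0 of 21 reads, exact binomial 95% interval 0 to 16.1%) and in O2 (0 of 9, 0 to 33.6%), and no read of either gene was found in O3. In young stroma it made up 39.2% in Y1 (20 of 51 reads, 25.8 to 53.9%) and 53.6% in Y3 (15 of 28, 33.9 to 72.5%). These intervals cover counting error only. Divided by exon length, the fetal share was 20.8% in Y1 and 31.9% in Y3. The lengths are unions of all annotated exons, 4163 bases for Chrng and 1690 for Chrne. Long rare exons of Chrng would make the share per length too low. With 2 aged and 2 young values the exact permutation test gives p = 0.333, the smallest it allows. Chrng itself had 1.55 and 0.887 normalized counts in Y1 and Y3 (unadjusted p = 0.0233, adjusted p = 1.0, edgeR). The mean of these was 5.94-fold the floor of 3 counts per library in aged stroma. That floor allows for counting error only, and not for the many low genes at 0 in the aged samples, given below. It is therefore not a lower bound on the difference by age. Chrng passed the count filter through the young samples alone. Chrne differed by -1.01 (SE 2.05).

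Many other low genes had this pattern, as was looked up after the values of Chrng were seen. Of 1843 protein-coding genes with a mean of 5 to 10 reads over the stromal samples, 130 (7.05%) had no read in all 3 aged and 10 or more in both young samples, and 189 (10.3%) had none in the aged and at least 1 in both young samples. The reverse, none in both young and at least 1 in all aged samples, was met by 1. Of these genes 53.7%, 41.2% and 73.6% were at 0 in O1, O2 and O3, against 11.4% in Y1 and 2.50% in Y3. Among 2366 protein-coding genes with a mean of 50 to 100 reads, 0.127% to 2.75% were at 0 in the aged samples. Every aged sample lay below every young one for 14.1% of all genes tested. Over all epithelial samples of an age, the fetal share of the reads was 39.1% in aged (9 of 23, exact interval 19.7 to 61.5%) and 37.0% in young mice (10 of 27, 19.4 to 57.6%), with every Chrng read in the 5 mice that gave both layers. These intervals pool the reads of several mice and leave out differences between them. Of the young reads, 8 of Chrng and 12 of Chrne came from Y3, whose epithelial sample had any count for 39907 genes, the most in epithelium.

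**Figure D4:**
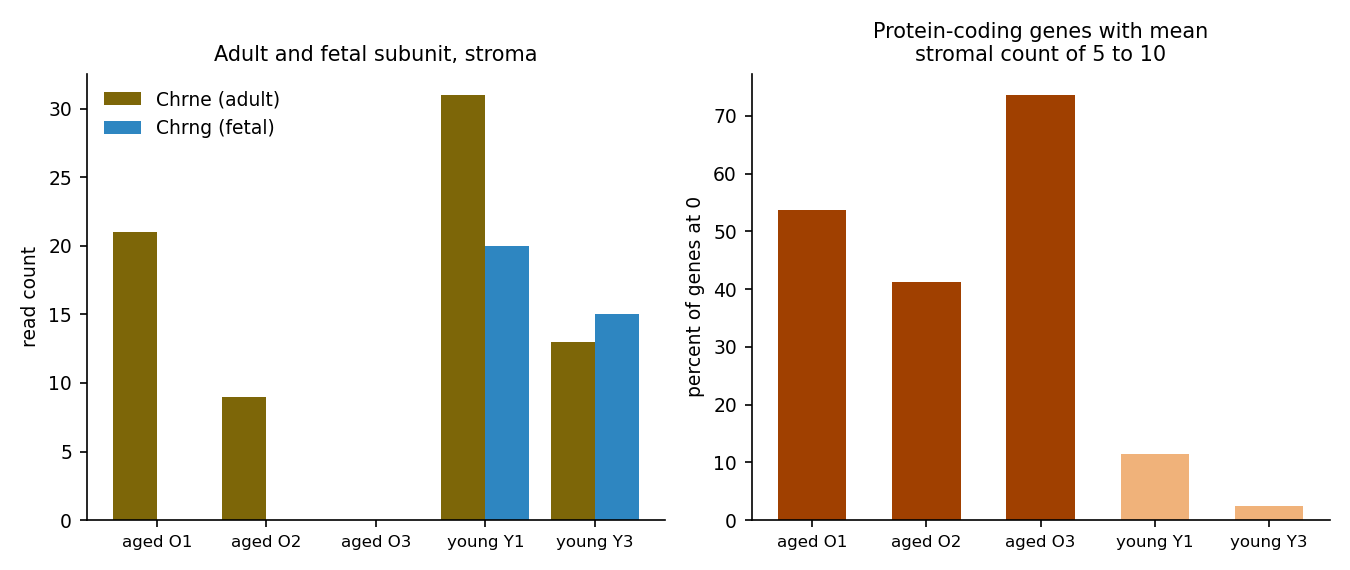
The left panel gives the read counts of Chrne and Chrng in each stromal sample, and the right panel the percentage of 1843 protein-coding genes with a mean stromal count of 5 to 10 that had no read there. Chrng is at 0 in the 3 aged samples, which are also those with 41.2% to 73.6% of such genes at 0.

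Genes other than the receptor known to respond to denervation were not DEGs by age either. Of 18 such genes 16 were tested in stroma. Their median log2 fold change was 0.10, and 9 of the 16 were above 0. The smallest unadjusted p belonged to Cdkn1a, a cell cycle inhibitor (-0.53, SE 0.31), Ankrd1, a titin-binding stress protein (0.96, SE 0.72), and Hdac4, a deacetylase that links denervation to gene expression (0.28, SE 0.27). Among the 30 other junction genes none was a DEG, and the smallest unadjusted p were for Lama5 (0.82), Erbb4 (-2.58) and Lamb2 (0.65), 2 laminins and a neuregulin receptor. Of 5 cholinergic nerve genes 4 were tested without a DEG. The log2 fold changes were 0.59 for Bche, -0.32 for Prima1 and -0.17 for Chat. Of the neuronal subunits 8 were tested without a DEG. Chrnb4, like Chrng, had no read in aged stroma and 1.12 ± 0.497 normalized counts in young stroma (SD, n = 2, unadjusted p = 0.0244, adjusted p = 1.0 from edgeR). It too passed the count filter through the young samples alone. Chrna4 (-1.22) and Chrna3 (1.27) followed.

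In epithelium, age was compared over 5 aged and 4 young mice with a term for how the mouse was coded. Only Chrnb1, Musk and Ache passed the filter, and none was a DEG, while 2 of 15107 genes (0.0132%) were. The log2 fold changes were 0.09 for Chrnb1 (SE 0.54), -0.13 for Musk (SE 0.51) and 0.34 for Ache (SE 0.38), each with an adjusted p of 0.999 (edgeR). Whether the effect of age differed between the layers was not tested. The other 7 genes had at most 12 reads in any aged and 16 in any young epithelial sample.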

How the data were processed

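Bulk RNA-Seq of mouse esophageal epithelium (9 samples) and stroma (5 samples) was used. The deposited values are raw read counts per gene, which the authors made after alignment to GRCm38.p6 with Rsubread and counting with featureCounts. The annotation release and the settings for strand and multiply matching reads are not given in the sources used here. Exon lengths and positions came from GENCODE M21 (53292 of 55291 symbols found) and promoters from RefSeq (GRCm38.p6).

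Counts were tested in edgeR 4.0.16 under R 4.3.3 (TMM, filterByExpr with a minimum count of 10, glmQLFit with robust estimation), with Benjamini-Hochberg adjustment over all genes tested and a threshold of 0.05. The standard error is the size of the log2 fold change divided by the square root of F. Layers were compared over 14 samples, age within stroma without a covariate and within epithelium with the form of the mouse code. Log2 CPM values carry an added 0.5. Single values were tested by exact permutation (scipy 1.17.1). Epithelium and stroma of a mouse are paired by the mouse code, and deviations from group means of the layers of one mouse correlated at 0.0271 to 0.161 over genes. Samples of one group differed by more than sampling noise (chi-square per degree of freedom of 9.93 or more). Among epithelial samples of one age it was 9.93 to 49.9 where both mice gave stroma or neither did. Between a mouse with stroma and a mouse without, it was 494 to 824.

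A gene with 3 reads has 0.707 to 1.25 normalized counts in the 4 mice without stroma and 0.0872 to 0.175 elsewhere, which sets the precision of low values. Named were all 10 junction genes, up to 4 DEGs in each direction per further list, the 3 smallest p where a list had no DEG by age, and the 8 genes most alike, of which some are not reported here. Members and lists were chosen with earlier results of these data known. Alternatives were DESeq2 1.42.0, upper quartile scaling, other filters, protein-coding genes only, scaling to muscle markers, mouse as a block, and leaving out each mouse. The procedure was tested on simulated data.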

Additional observations from a re-analysis of the deposited data

Results flagged for a closer look

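In 20 sets of values (10 junction genes in aged and in young epithelium), 2 held a sample far from the rest of its group, and chance flags about 1 in 20. Chrnd in the young epithelium of Y3 had a log2 normalized count (0.5 added) of -0.062, from 14 reads, while the other 3 young samples had 0 or 1 read. That sample of Y3 had 39907 genes with any count, against 16695 to 27313 in the other young epithelial samples. Rapsn in the young epithelium of YF5 had 1.37, from 5 reads in a library with few protein-coding counts, against 0 to 4 reads in the other young samples. The skeletal muscle markers summed to 1855 normalized counts in YF5, against 231 to 729 in the other young epithelial samples (scale of the 14 samples).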

How the results depend on the processing

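Between the layers, the 8 tested junction genes were DEGs higher in stroma as reported and under all 16 alternatives. With mouse as a replicate block, 8 were DEGs, and 8590 of 16713 genes, against 9400 without the block, so the pairing changed no call of a junction gene. DEGs over all genes numbered 9441, and 8395 to 14026 under the alternatives. The median log2 fold change of all genes was 0.05, and 0.56 with no filter, 0.22 with protein-coding genes only and 0.15 with upper quartile scaling. In those 10 samples it was -0.14 with mouse as a block and 0.018 without. With the block 4003 genes were higher and 4587 lower in stroma, and without it 4725 and 4675. Over all 14 samples, as reported, 5059 were higher and 4382 lower. By age no junction gene was a DEG under any alternative in either layer. In stroma, where 0 genes were called as reported, DESeq2 called 2, no filter 26, all 14 samples fitted together 77, and the fits without one mouse 0 to 13 (13 without Y1, 7 without Y3). In epithelium, where 2 genes were called, DESeq2 called 28, no filter 36, no term for the mouse code 0, and the fits without one mouse 0 to 3. The cause was not tested. Without one mouse, signs turned in stroma for Chrna1 (-0.58 without O1, up to 0.36), Chrne (-2.48 to 0.0012, the latter without Y1) and Rapsn (-1.42 to 0.14, the latter without O3). They turned in epithelium for Chrnb1 (-0.12, -0.08 and -0.0052 without OM8, YF5 and YM4, up to 0.40) and Musk (0.20 and 0.56 without O2 and Y3, down to -0.43). None of these was called in any fit. The difference of the fetal share was -26.3 percentage points, -46.4 without division by length, and -31.9 to -20.8 without one mouse. With a mean CPM of at least 1 as the filter, Chrng was not tested. The median difference per muscle RNA ran from -0.30 to -0.07. No fit with mouse as a block can be made by age, since each mouse has 1 age. With 3 aged and 2 young stromal samples, and at most 31 reads of Chrne and 20 of Chrng in any of them, depth limits what can be said of the subunit exchange.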

Other observations

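Of the 18 genes known to respond to denervation, 17 were tested between the layers, and 11 were DEGs higher and 1 (Cdkn1a, log2 fold change -1.10) lower in stroma, beside 30.1% higher and 26.1% lower over all genes tested. Highest were Sln, a regulator of the calcium pump (6.68), Myh3, embryonic myosin (6.14), Myod1, a myogenic factor (5.84), and Trim63, a ubiquitin ligase of atrophy (5.77). Myh3 had 24.1 ± 9.36 normalized counts in stroma (SD, n = 5) and 0.252 ± 0.266 in epithelium (SD, n = 9).

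The next genes were picked after their values were seen. Myog, which encodes myogenin, had 7.84 ± 3.45 normalized counts in stroma and 0.271 ± 0.538 in epithelium (SD, n = 5 and 9). Chrna9, a nicotinic subunit better known from hair cells, had 15.6 ± 2.73 and 0.341 ± 0.325. By age in stroma, Chrna9 differed by -0.09 (SE 0.33) and Myog by 0.12 (SE 0.60), neither a DEG in edgeR's test.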
